A study of Homo sapiens with 22 samples.

Results

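Matrix breakdown genes were followed while human fibroblasts were reprogrammed: the matrix metalloproteinases MMP1, MMP2, MMP3, MMP9 and MMP14, and the tissue inhibitors TIMP1, TIMP2 and TIMP3. They were taken by symbol from the gene tables and make up 8 of the 33694 genes counted. BJ cells, a line of fibroblasts from newborn foreskin, were grown in fibronectin-coated microfluidic channels at low oxygen and given 8 transfections of messenger RNA for POU5F1, SOX2, KLF4, MYC, LIN28 and NANOG, the last on day 8, while the day 0 cells were untransfected controls. BJ cells were kept in DMEM with fetal bovine serum, the medium during the transfections, from day 1, was Pluriton, and StemMACS iPSBrew replaced it from day 9. In comparisons with D0 the transfections, the move out of serum medium and the time in the channels at low oxygen cannot be told apart. The same holds after day 8 for the end of the transfections and the new medium. Cells were captured on days 0, 3, 5, 7, 9, 11, 13 and 15 (D0 to D15), with 2 pools per day, A and B, each joining the cells of 4 chips.

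Matrix metalloproteinases are zinc enzymes that are made as inactive proenzymes and cut proteins of the extracellular matrix once the propeptide is removed. Collagenases such as MMP1 open the triple helix of fibrillar collagen, stromelysins such as MMP3 cut proteoglycans and also activate other proenzymes, and gelatinases such as MMP2 and MMP9 cut denatured collagen and collagen IV. MMP14 sits in the cell membrane, where it activates proMMP2 together with TIMP2. TIMPs bind the active site and block it, and fibroblasts are a known source of most of these proteins.

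The measurement was the number of unique molecular identifiers (UMIs, 1 per captured RNA molecule) per gene and cell. Of 44197 barcodes, 41975 were kept, those with 1000 genes or more and a mitochondrial share of no more than 10%. The pools held 571 to 6142 cells and 33181614 to 180056814 UMIs, with a median of 23717 to 80168 UMIs per cell. Of the 16 pools, 6 were captured as 2 frozen aliquots, which were added together. Among the 231 pairs of libraries, the largest number of shared barcodes was 41. Levels are given as CPM, the UMIs of a gene in a pool scaled to a common total, and a fold change was called at an adjusted p below 0.01 and a log2 size above 0.25 in the edgeR quasi-likelihood test over 12794 genes, which included all 8 members. The pools are the replicates (n = 2 per day), and p-values measure the spread between them. CPM were compared between days and cells, not between genes.

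**Figure D1:**
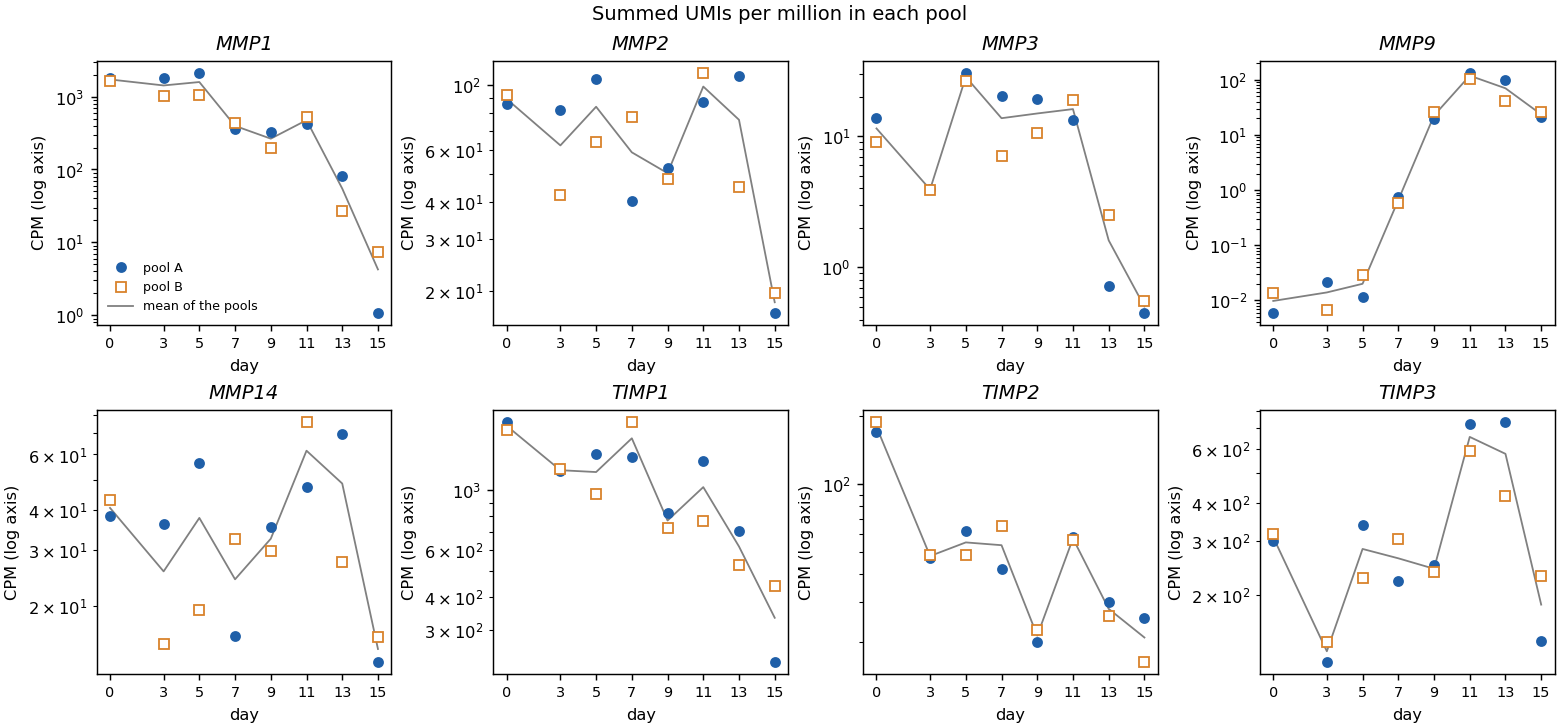
Levels of the 8 genes in each pool. The horizontal axis is the day, the vertical axis the CPM on a log scale, filled circles are pools A, open squares pools B, and the line joins the mean of both. MMP9 stayed at or below 0.0283 CPM until D5 and reached 105 and 132 CPM on D11, while MMP1 fell from 1644 and 1792 CPM on D0 to 1.08 and 7.42 CPM on D15.

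The genes lie on separate chromosomes except for MMP1 and MMP3. In the gencode v44 annotation of GRCh38, the build of the files, MMP1 covers chr11:102789401-102798160 and MMP3 chr11:102835801-102843609, both on the minus strand. MMP2 lies at chr16:55389700-55506691 and MMP14 at chr14:22836560-22849041, both on the plus strand. MMP9 lies at chr20:46008908-46016561 on the plus strand and overlaps the antisense gene SLC12A5-AS1, which was counted at no more than 0.819 CPM in any pool. TIMP1 (chrX:47582408-47586789, plus strand) lies within SYN1 and TIMP3 (chr22:32801705-32863041, plus strand) within SYN3, both on the opposite strand. SYN1 and SYN3 reached at most 3.81 and 3.92 CPM. TIMP2 (chr17:78852977-78925387, minus strand) overlaps CEP295NL on the same strand, which reached at most 0.255 CPM. Whether the counting used the strand was not stated.

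Promoter windows in RefSeq (GRCh38.p14) were at hand for 3 of the 8 genes, MMP14, TIMP1 and TIMP3, and not for MMP1, MMP2, MMP3, MMP9 and TIMP2. These 3 are shown as the members for which a promoter was at hand, so that both inhibitors can be set beside the membrane-bound enzyme. Each line gives the bases from position -150 to position -31 relative to the start of the gene in RefSeq, which for MMP14 and TIMP1 differs from the gencode start given above, 5′ to 3′ on the plus strand. Capitals mark GC boxes (GGGCGG, either strand) and the AP-1-like word TGAGTAA (either strand).
MMP14, chr14:22836435-22836554: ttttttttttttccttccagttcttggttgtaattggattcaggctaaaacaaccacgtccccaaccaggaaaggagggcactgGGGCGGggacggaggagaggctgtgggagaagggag
TIMP1, chrX:47582286-47582405: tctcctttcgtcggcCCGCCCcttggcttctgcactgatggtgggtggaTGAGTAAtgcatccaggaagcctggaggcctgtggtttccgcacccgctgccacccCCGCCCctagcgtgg
TIMP3, chr22:32801555-32801674: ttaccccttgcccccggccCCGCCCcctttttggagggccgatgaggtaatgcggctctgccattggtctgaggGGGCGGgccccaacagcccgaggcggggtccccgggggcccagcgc
The MMP14 window held 1 GC box, starting at -66, and those of TIMP1 and TIMP3 held 2 each, at -135 and -45 and at -131 and -76. A GC box was present in 31.9% of all 35116 promoters of the table over the same window. TIMP1 also held TGAGTAA at -101, a word found in 1.05% of promoters. None of the 3 windows held the AP-1 word TGAGTCA (2.45% of promoters) or TATAAA (3.88%), read on both strands. The windows end at -31, so words nearer to the start were not read, and whether these promoters have a TATA box was not tested. Their GC content was 51.7% for MMP14, 65.0% for TIMP1 and 73.3% for TIMP3, against a median of 59.2% for all promoters.

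MMP9 rose from almost no transcripts. Its 2 pools held 1 and 2 UMIs on D0, 2 and 1 on D3, and 1 and 1 on D5. They held 106 and 79 UMIs on D7, which is 0.743 and 0.578 CPM, then 19.3 and 25.8 CPM on D9 and 132 and 105 CPM on D11. Both pools of D7, D9 and D11 lay above both pools of the day before. The level then was 98.9 and 41.4 CPM on D13 and 21.4 and 25.7 CPM on D15, close to that of D9, with overlapping pools.

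The rises of MMP9 were called from D5 to D7, from D7 to D9 and from D9 to D11. The ratio of D7 to D5 in counts was 39.9, with a 95% counting interval of 10.9 to 332, since D5 held 2 UMIs in all. The interval covers counting error and not the spread between pools. The log2 differences were 5.24 ± 0.69 (SE) for D7 (adjusted p = 8.7e-04), 5.05 ± 0.38 for D9 (adjusted p = 8.6e-06) and 2.39 ± 0.33 for D11 (adjusted p = 8.2e-04). Without pool A of D5 the first had an adjusted p of 0.0634, and with only the second aliquots of the pools that had a pair it was 0.0145. The last had 0.0251 without pool A of D9, 0.0122 without pool B of D9 and 0.0115 without pool A of D11.

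MMP9 on D15 stood far above D0. The count ratio was 2538, with an interval of 867 to 12317, and that of D11 to D0 was 12539, with an interval of 4290 to 60805. The fitted difference of D15 from D0 was 11.06 ± 0.56, with an adjusted p of 7.9e-09. The difference between D13 and D15 was -1.51 on the log2 scale (adjusted p = 0.028) and was not called, although both D15 pools lay below both D13 pools.

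MMP1 went the other way. Its pools stood at 1792 and 1644 CPM on D0, 1813 and 1029 on D3, and 2102 and 1066 on D5. They stood at 361 and 432 CPM on D7, 331 and 198 on D9, and 427 and 522 on D11, below every pool of the earlier days. On D13 they stood at 82.2 and 27.3 CPM, and on D15 at 1.08 and 7.42 CPM. The collagenase was lowest in both pools of the last day.

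No step of MMP1 between adjacent days was called. The log2 difference was -1.99 ± 0.64 from D5 to D7 (adjusted p = 0.122), -3.10 ± 0.67 between D11 and D13 (adjusted p = 0.036) and -3.57 ± 0.70 from D13 to D15 (adjusted p = 0.022). Without pool B of D13 the last was -4.08 and was called (adjusted p = 0.0056). The first was called with only the pools of D5 and D7 (adjusted p = 0.0055), and the other two with DESeq2 (adjusted p = 5.0e-05 and 1.7e-06). Over the whole course the fall was called. MMP1 fell by 8.67 on the log2 scale from D0 to D15 (SE 0.87, adjusted p = 2.4e-06). The size rested on the D15 pools, since the difference was -10.70 without pool B of D15, -7.91 without pool A and -7.10 with only cells at or below 5% mitochondrial UMIs, each of them called.

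MMP3, the stromelysin, had its highest mean level on D5. Its levels were 13.9 and 9.09 CPM on D0, 3.94 and 3.93 on D3, and 30.4 and 26.4 on D5. They were 20.4 and 7.10 CPM on D7, 19.2 and 10.6 on D9, and 13.3 and 18.9 on D11. On D13 they were 0.726 and 2.49 CPM and on D15 0.452 and 0.555 CPM. The level of pool B of D5 rested on few cells, since 1 cell held 410 of its 930 UMIs, and its 2 aliquots stood at 61.5 and 14.0 CPM. Without the UMIs of the cell with the most MMP3 in each pool, D5 stood at 27.8 and 14.7 CPM, pool A of D7 at 16.3 CPM, pool A of D9 at 17.1 CPM and pool B of D11 at 17.6 CPM, so D5 overlapped with these days.

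The rise of MMP3 from D3 to D5 was 2.79 ± 0.58 on the log2 scale, with an adjusted p of 0.0112, just outside the threshold. It passed when either pool of D7 (adjusted p = 0.0068 and 0.0063) or of D13 (adjusted p = 0.0019 and 0.0018) was left out, with no limit on mitochondrial UMIs, with only the first aliquots, with no filter on genes and in DESeq2. The difference between D11 and D13 was -3.18 ± 0.60 (adjusted p = 0.0206) and was not called, but was with DESeq2 (adjusted p = 1.5e-06) and with no filter on genes (adjusted p = 6.8e-05). That from D0 to D15 was called, at -4.55 ± 0.68 (adjusted p = 7.8e-05).

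MMP2 and MMP14, the gelatinase and its membrane-bound activator, differed widely between the pools of some days, such as D3, D5, D7 and D13, lay close on D0, D9 and D15, and were lowest on average on D15. MMP2 lay between 40.4 CPM (pool A of D7) and 109.6 CPM (pool B of D11) in the 14 pools up to D13, and at 16.9 and 19.8 CPM on D15. MMP14 lay between 15.2 CPM (pool B of D3) and 75.8 CPM (pool B of D11) up to D13, and at 13.4 and 15.9 CPM on D15. For both genes, 6 of the 7 neighbours in the order of days overlapped. Neither had a called step between adjacent days, although MMP2 from D9 to D11 was called with only the pools of those days in the fit (adjusted p = 0.0056) and MMP14 from D13 to D15 with no filter on genes (adjusted p = 0.0068).

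From D0 to D15, MMP2 fell by 2.35 on the log2 scale (SE 0.40, adjusted p = 2.1e-04), and by 1.32 with only cells at or below 5% mitochondrial UMIs, where it was still called (adjusted p = 0.0059). The difference of MMP14 was -1.53 ± 0.52 and was not called (adjusted p = 0.0202). It was called in 3 of 26 alternatives, with DESeq2 (adjusted p = 0.0047), with no filter on genes (adjusted p = 5.9e-04) and with only the pools of D0 and D15 (adjusted p = 1.5e-05). Between D13 and D15 MMP2 differed by -1.99 ± 0.39 (adjusted p = 0.0223), and without pool B of D13 by -2.42 (adjusted p = 0.0042). MMP14 differed by -1.67 ± 0.52 (adjusted p = 0.089).

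TIMP1, an inhibitor secreted by many cell types, was lowest at the end. It stood at 1792 and 1686 CPM on D0, 1181 and 1196 on D3, 1371 and 968 on D5, and 1331 and 1797 on D7. It stood at 821 and 721 CPM on D9, 1289 and 766 on D11, 707 and 526 on D13, and 229 and 439 on D15. D0 and D7 were the highest days and overlapped, and the D15 pools were the lowest 2 of all. No adjacent step was called, and the largest in size was D9 against D7, at -1.05 ± 0.32 (adjusted p = 0.0431), which was called with no filter on genes (adjusted p = 0.0097) and with only the first aliquots (adjusted p = 0.0075). From D0 to D15 it fell by 2.44 (SE 0.33, adjusted p = 3.2e-05). With only cells at or below 5% mitochondrial UMIs the difference was -1.06 and was not called (adjusted p = 0.0258).

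TIMP2, which both inhibits MMPs and takes part in the activation of MMP2, made the sharpest early drop. It was at 170.5 and 188 CPM on D0 and at 47.4 and 48.9 CPM on D3. It held 62.0 and 48.6 CPM on D5 and 42.3 and 65.2 on D7, then 20.1 and 22.7 on D9, 58.1 and 56.9 on D11, 30.1 and 26.1 on D13, and 25.6 and 16.4 on D15. D0 stood above every other day, and D9 and D15 shared the bottom of the order.

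TIMP2 had 3 called steps. The level fell by 1.93 on the log2 scale from D0 to D3 (SE 0.23, adjusted p = 6.5e-05) and by 1.36 from D7 to D9 (SE 0.23, adjusted p = 0.0017), and rose by 1.41 ± 0.23 from D9 to D11 (adjusted p = 0.0025). The first was kept with every pool left out in turn. It was lost at -1.86 with only the pools of D0 and D3 in the fit (adjusted p = 0.0102), where 0 of 12794 genes were called. The second was lost without pool B of D7 (0.0281), pool A of D9 (0.0266) or pool B of D9 (0.0201), with only the pools of D7 and D9 (0.0102) and with only the first aliquots (0.0119), and the third without either pool of D9 (0.0501 and 0.0292) or of D11 (0.0251 and 0.0125), all as adjusted p in edgeR. The difference between D0 and D15 was -3.16 ± 0.25 (adjusted p = 2.3e-07).

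TIMP3, which stays bound to the matrix, fell and came back. Its pools were at 301 and 317 CPM on D0 and 121 and 141 on D3. They were at 338 and 228 CPM on D5, 223 and 304 on D7, and 251 and 237 on D9. They rose to 722 and 592 CPM on D11 and 734 and 423 on D13, above every pool of the other days, and ended at 141 and 231 CPM on D15.

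The fall of TIMP3 from D0 to D3 was called, by 1.26 on the log2 scale (SE 0.28, adjusted p = 0.0036), as was the rise from D9 to D11, 1.42 ± 0.28 (adjusted p = 0.0078). The call of the fall was lost without pool A of D0 (difference -1.27), pool B of D0 (-1.25) or pool A of D3 (-1.11). It was also lost with only cells at or below 5% mitochondrial UMIs (adjusted p = 0.0162). The same held with only the pools of D0 and D3 (adjusted p = 0.0154), where 0 of 12794 genes were called. The rise was called in 13 of 26 alternatives and was lost without any 1 of 9 pools, namely both of D0, D5, D9 and D11 and pool B of D7, with an adjusted p of up to 0.0857 (without pool B of D9). The difference of -1.59 between D13 and D15 was not called (adjusted p = 0.0157), but was without pool B of D13, at -1.85 (adjusted p = 0.0045). The same held for MMP9 in that step (adjusted p = 0.0022 without pool B of D13).

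Over the 7 steps, 8 of 56 tests of a member were called. They were 2 from D0 to D3, where 25.6% of all genes tested were called, and 0 from D3 to D5 (3.56% of all genes, and 2 members with an unadjusted p below 0.05, as for 19.7% of all genes). There was 1 from D5 to D7 (2.06% of all genes), 2 from D7 to D9 (7.37%) and 3 from D9 to D11 (4.09%). With 0 called in each of the last 2 steps, 0.117% and 0.086% of all genes were, so few genes of any kind passed there. At an unadjusted p below 0.05, 5 members passed from D11 to D13 (16.2% of all genes) and 7 from D13 to D15 (23.2%). DESeq2 called 3 members (3.7% of all genes), MMP1, MMP3 and TIMP2, and 4 (5.11%), MMP1, MMP2, MMP9 and TIMP3, in these steps. With no filter on genes MMP1 and MMP3 were called in the first of them, and MMP1, MMP2, MMP9, MMP14 and TIMP3 in the last. In the last step all 8 members were lower in both D15 pools than in both D13 pools, as were 26.5% of all genes. With only cells at or below 5% mitochondrial UMIs this did not hold for TIMP1, at 735 and 1029 CPM on D13 and 569.6 and 1268 CPM on D15, nor for TIMP2, at 29.7 and 34.9 CPM on D13 and 32.2 and 26.8 CPM on D15.

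**Figure D2:**
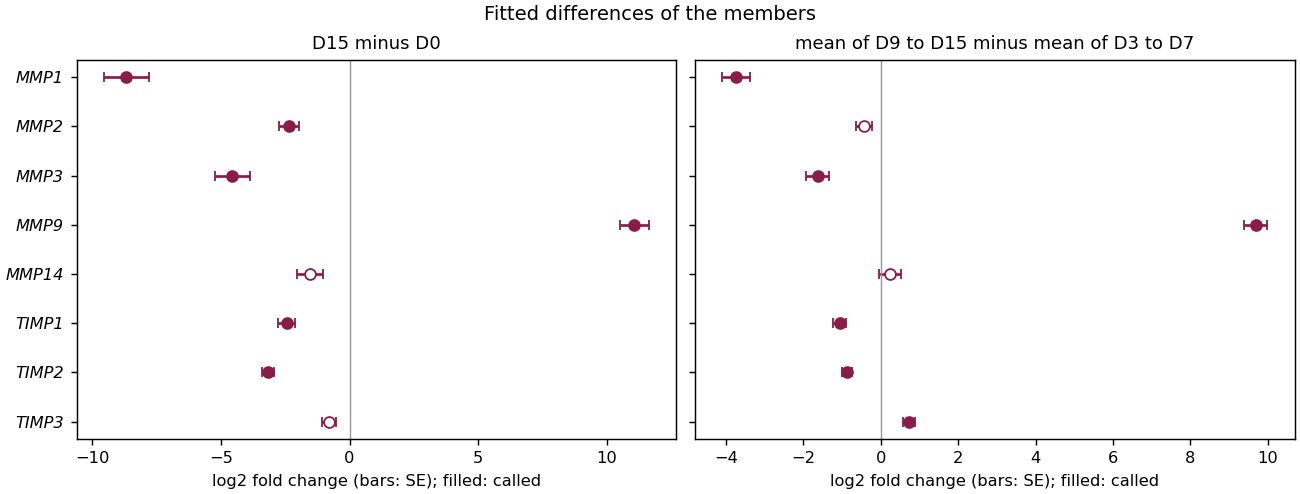
Fitted log2 differences of the 8 genes, D15 minus D0 on the left and the mean of D9 to D15 minus the mean of D3 to D7 on the right. Points are edgeR estimates, bars 1 SE, and filled points were called. MMP9 lies at 11.06 and 9.69, to the right of 0 in both panels, and MMP1 at -8.67 and -3.73, to the left in both.

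Between D0 and D15, 6 of the 8 members were called, 1 higher and 5 lower. Of all genes tested 53.4% were called, 26.8% higher and 26.7% lower. The 8 members had a median log2 difference of -2.39, and all genes tested one of 0.01. The pools of D0 and D15 did not overlap for any of the 8, as for 91.4% of all genes tested. MMP14 and TIMP3 were the 2 that were not called, TIMP3 at -0.79 ± 0.28 (adjusted p = 0.0243). TIMP3 was called at -1.01 with no filter on genes (adjusted p = 0.0017) and at -0.81 with only the pools of D0 and D15 (adjusted p = 0.0096). It was also called without pool B of D15, at -1.20. With only cells at or below 5% mitochondrial UMIs its sign turned, to 0.62, and it was not called (adjusted p = 0.108).

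Comparing the 4 days after the transfections with D3 to D7, again 6 were called, 2 higher and 4 lower, against 43.5% of all genes (21% higher and 22.5% lower). MMP9 rose by 9.69 ± 0.30 (adjusted p = 9.5e-11) and TIMP3 by 0.72 ± 0.15 (adjusted p = 0.0013). MMP1 fell by 3.73 (SE 0.36, adjusted p = 1.6e-06), MMP3 by 1.63 (SE 0.31), TIMP1 by 1.06 (SE 0.17) and TIMP2 by 0.88 (SE 0.12). With only cells at or below 5% mitochondrial UMIs, TIMP1 differed by -0.64 and was not called (adjusted p = 0.016). MMP2 differed by -0.43 ± 0.20 (adjusted p = 0.088) and MMP14 by 0.24 ± 0.27 (adjusted p = 0.488). Single pools overlapped between these 2 sets of days for every member except MMP9, while 17.6% of all genes had none that overlapped.

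The level of a pool does not tell fewer carrying cells from less RNA per cell, so cells were also thinned to 5000 UMIs each, which none fell short of. As a background, 12 genes of other lineages were looked up. The highest share of thinned cells in any pool was 0% for CD3E and 0.0566% for HBB, and went up to 1.47% for SOX1 and 1.75% for CD14, of which CD14 had UMIs in every pool. MMP1 was seen in 92.7% and 90.3% of cells on D0, 49.6% and 38.4% on D7, 6.10% and 6.02% on D13, and 0.350% and 1.80% on D15. The D15 shares lie above those of CD3E and HBB, with pool A below and pool B just above the highest share of CD14. Without thinning, MMP1 was in 98.8% of cells in pool A of D11 and 71.4% in pool B.

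MMP9 was in at most 0.0532% of thinned cells up to D5 and in 0.521% and 0.0799% on D7, which is above the highest shares of CD3E and HBB and below that of CD14. It was in 7.12% and 8.17% on D9, 32.2% and 23.2% on D11, 19.5% and 17.3% on D13, and 9.46% and 10.4% on D15. MMP3 was in 6.56% and 4.05% of cells on D5 and in 0.350% and 0.237% on D15, between the same bounds. TIMP1 was in 99.7% and 99.1% on D0 and still in 43.6% and 57.4% on D15.

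TIMP2 was in 55.8% and 58.5% of thinned cells on D0 and 21.3% and 21.8% on D3. TIMP3 was in 71.7% of cells in pool A of D11 and 42.6% in pool B, at levels of 722 and 592 CPM. MMP2 was in 18.6% to 41.3% of cells up to D13 and in 7.71% and 8.59% on D15, and MMP14 in 7.22% to 30.6% and in 6.30% and 8.49%.

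**Figure D3:**
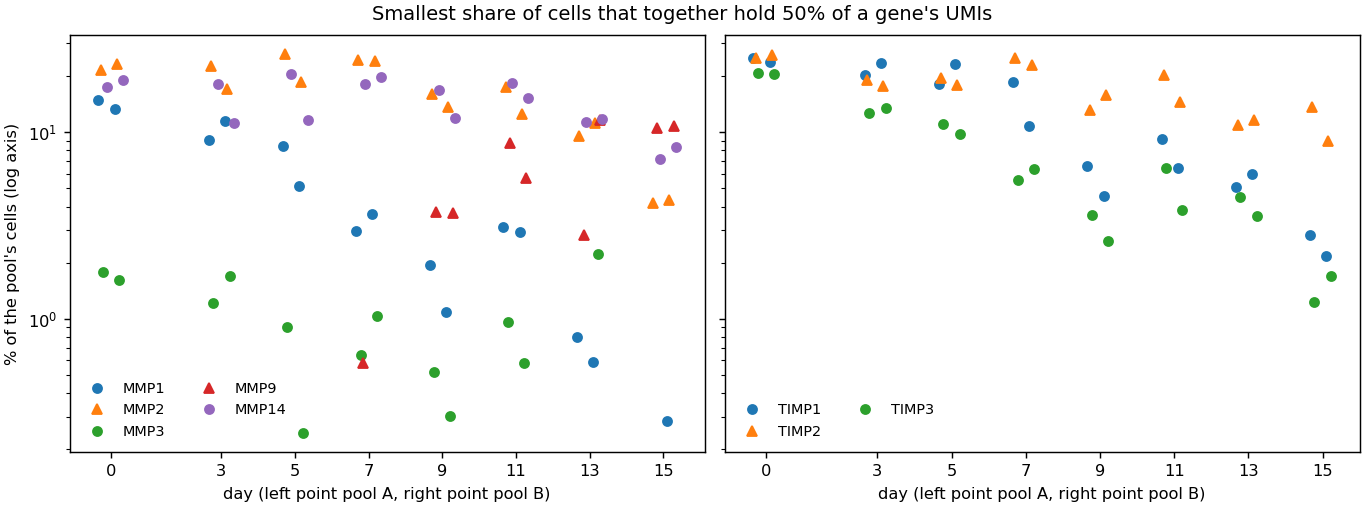
Smallest share of a pool's cells that together held 50% of a gene's UMIs, on a log axis, by day, for pools with at least 100 UMIs of the gene (left panel the MMPs, right panel the TIMPs). MMP3 lies at or below 2.24% in each pool shown, and MMP1 goes from 15.0% and 13.2% on D0 to 0.799% and 0.590% on D13.

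The UMIs of these genes were held by unequal numbers of cells. For MMP3, 50% of the UMIs of a pool lay in 0.245% to 2.24% of its cells in the 13 pools with at least 100 UMIs, and 1 cell of pool A of D7 carried 581 UMIs of the 2910 there. For MMP1 the share was 15.0% and 13.2% of cells on D0, 2.95% and 3.64% on D7, and 0.799% and 0.590% on D13. TIMP1 went from 25.0% and 23.7% on D0 to 2.80% and 2.18% on D15, and TIMP3 from 20.7% and 20.4% to 1.23% and 1.71%. MMP2 went from 21.5% and 23.3% to 4.2% and 4.32%, MMP14 from 17.4% and 18.9% to 7.18% and 8.30%, and TIMP2 from 25.0% and 25.9% to 13.7% and 8.97%. The share was thus lower late in the course for MMP1, MMP2, MMP14 and all 3 inhibitors. Fewer UMIs reach fewer cells, so the share also moves with the level, whose part was not tested.

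Carrying cells overlapped for most pairs of members. In all 6 pools of D9 to D13, cells with any member but MMP9 had each of the others but MMP9 more often than cells without it. Over all pools this held in 16 of 16 for MMP1 with MMP2 or TIMP1, and in 14 of 16 for MMP3 with TIMP2 or TIMP3. The pairs that follow are examples. In 14 of 16 pools, thinned cells with MMP3 had MMP1 more often than cells without it, for example 71.4% against 14.3% in pool A of D9 and 83.2% against 22.2% in pool B of D11. Cells with MMP2 had MMP14 and TIMP2 more often in 16 of 16 pools, with 48.5% against 21.0% for MMP14 in pool B of D11. Cells with MMP9 had each of the other 7 members less often than cells without it in all 6 pools of D9 to D13, with small gaps in pool B of D13, such as 14.0% against 14.8% for MMP14. On D15 it was not so for each: in pool A, TIMP1 was in 27 of the 54 cells with MMP9 and 42.9% of the others, and TIMP2 in 16.7% and 12.6%, and in pool B MMP14 was in 9.59% and 8.36%. In pool B of D11, 12.3% of cells with MMP9 had MMP1, against 28.3% of the others, and 20.7% against 39.4% had MMP2. These shares are within pools and are given as descriptions, since cells of 1 pool are not replicates.

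To see which cells these were, 20000 cells (2500 per day) were clustered into 16 clusters without any MMP or TIMP gene. A marker was counted as high in a cluster at 5 CPM or more and above the median of the clusters. Clusters are given by number and by their leading genes, those with the largest fold over the other cells among genes at 50 CPM or more. Shares of UMIs by cluster are out of the cells clustered, with the same number from each day, and not out of all cells kept. Since the cells of a cluster come from few pools, all values by cluster are descriptions.

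**Figure D4:**
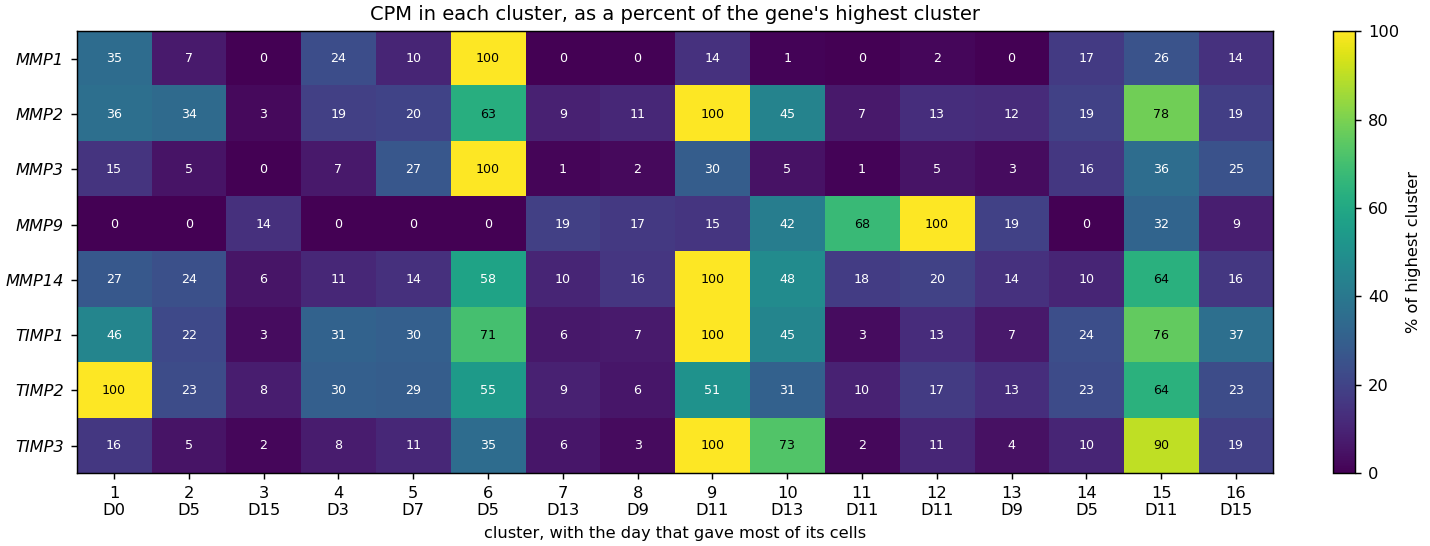
CPM of the 8 genes in the 16 clusters, as a percent of the gene's highest cluster; the label under each column is the day that gave most cells. MMP1 and MMP3 peak in cluster 6, MMP2, MMP14, TIMP1 and TIMP3 in cluster 9, TIMP2 in cluster 1 and MMP9 in cluster 12.

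MMP1 and MMP3 were highest in cluster 6, 1322 cells (6.61% of those clustered). Of these, 47.6% were from D5, with 45.7% from pool A of D5. The cluster was led by CXCL8, IL1B and CXCL1, a chemokine, a cytokine and another chemokine of inflammation. In it, 8 of 11 inflammatory and 12 of 15 somatic markers were high. MMP1 stood at 4954 CPM and MMP3 at 87.4 CPM, and the cluster held 38.4% of the MMP1 and 35.2% of the MMP3 UMIs of the cells clustered. Within pool A of D5, MMP1 was at 6467 CPM in this cluster and at 596 CPM in cluster 2. In pool A of D9, MMP3 was at 320.0 CPM there and at 2.24 CPM in cluster 8. Pool B of D5 gave 90.2% of cluster 14 instead, where 7 of 11 inflammatory markers were high. Its cells in cluster 14 had MMP1 at 843 CPM and MMP3 at 15.5 CPM.

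MMP2, MMP14, TIMP1 and TIMP3 were highest in cluster 9, 1146 cells (5.73%) led by PENK, TGFBI and ELN, with 15 of 15 somatic and 0 of 11 pluripotent markers high. MMP2 stood there at 247 CPM, MMP14 at 143 CPM, TIMP1 at 3814 CPM and TIMP3 at 1929 CPM. With 30 principal components TIMP3 was highest in another cluster, of 599 cells, of which 91.2% were from D11. Cluster 9 held 26.9% of the TIMP3 UMIs and 16.9% of those of TIMP1, and pool B of D11 gave 39.1% of its cells. In pool B of D7, TIMP1 was at 11479 CPM in this cluster and at 782 CPM in cluster 5. Cluster 15, mostly from pool A of D11 and led by SAA1, ACTA2 and ELN, came next for MMP2 (194 CPM), MMP14 (91.3 CPM), TIMP1 (2893 CPM) and TIMP3 (1746 CPM).

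TIMP2 was highest in cluster 1, the untransfected fibroblasts, with 99.8% of its cells from D0 and 13 of 15 somatic markers high, at 176 CPM. Cluster 15 followed with 113 CPM and cluster 6 with 96.1 CPM. This is the only member for which the starting cells stood above each later cluster.

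MMP9 was highest in cluster 12, at 168 CPM, and next in cluster 11, at 114 CPM. Cluster 12 (724 cells, of which pool A of D11 gave 88.3%) was led by ACTA1, CSH1 and MIXL1, and cluster 11, led by CSH2, CSH1 and CYP26A1, held 1054 cells, of which pool B of D11 gave 60.9%. In both, 11 of 11 pluripotent markers were high, with 9 and 6 of 11 mesendoderm markers. They held 32.8% and 24.0% of the MMP9 UMIs. Next came cluster 8 by share of UMIs (9.36%, at 27.8 CPM, mostly D9 cells) and cluster 10 by level (71.3 CPM and 7.15% of UMIs), led by APOA2, CST1 and LINC01467 with 11 of 11 mesendoderm markers high. In cluster 3, the D15 cells led by KIF1A, PTPRZ1 and TSTD1 with 11 of 11 pluripotent markers high, MMP9 was at 23.1 CPM.

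The split was visible inside both pools of D11. In pool A of D11, MMP9 was at 172 CPM in the 639 cells of cluster 12 and at 60.5 CPM in the 529 cells of cluster 15. There, MMP1 was at 94.4 CPM against 1355 CPM and TIMP3 at 208 CPM against 1712 CPM. In pool B of D11, MMP9 was at 139 CPM in cluster 11 and 38.2 CPM in cluster 9, while MMP1 was at 23.8 against 1746 CPM and TIMP3 at 52.2 against 1908 CPM. The summed CPM of the pluripotent markers was 2584 against 429 in the first pair and 3572 against 222 in the second. Pool A of D13 went the same way for MMP9, at 83.8 CPM in cluster 11 and 48.2 CPM in cluster 9. In pool B of D13 MMP9 was instead lower in cluster 7, with 11 pluripotent markers high, than in cluster 10 (31.5 and 75.3 CPM). It was also lower in cluster 3 than in cluster 10 on D15, at 20.9 and 27.6 CPM in pool A. In pool B of D15 these were 24.2 and 35.8 CPM. How much free RNA from the other cells adds to the lower value of each pair was not tested.

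Markers of cell types also differed between the pools. The summed CPM of the 15 somatic markers was 13715 to 13996 on D0, 4187 to 9639 from D3 to D13, and 2455 and 3125 on D15. That of the 11 inflammatory markers was 6.84 and 7.24 on D0, 649.8 and 450.1 on D5, and 19.5 and 36.3 on D15. That of the 11 pluripotent markers was 49.2 and 49.9 on D0 and 4269.6 and 3878 on D15. That of the 11 mesendoderm markers was at most 32.3 CPM up to D9 and 119 to 235 CPM from D11 on. The part of these cell types in the changes of the members was not tested.

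Mitochondrial content also differed between the pools. Of the cells kept, 70.9% in pool B of D13 and, on D15, 70.4% in pool A and 82.6% in pool B had more than 5% mitochondrial UMIs, against 4.04% to 31.2% in the other 13 pools. In pool A of D15, TIMP1 was at 569.6 CPM in cells at or below 5% and at 111 CPM in the others, and TIMP3 at 354 and 67.4 CPM. In pool B of D15 TIMP1 was at 1268 and 312 CPM and TIMP3 at 678 and 163 CPM. MMP1 was at 3.86 and 0.122 CPM in pool A and at 23.9 and 4.89 CPM in pool B. MMP2 was at 32.5 and 11.5 CPM and at 45.6 and 15.8 CPM, and MMP14 at 21.8 and 10.4 CPM and at 26.9 and 14.3 CPM. TIMP2 was at 32.2 and 23.3 CPM and at 26.8 and 14.8 CPM. These 6 genes were thus higher in the cells at or below 5% in both D15 pools. MMP9 was at 23.6 and 20.7 CPM in pool A and at 20.3 and 26.5 CPM in pool B. With only cells at or below 5%, the difference from D0 to D15 was -7.10 for MMP1 (adjusted p = 1.7e-06) and -0.85 for MMP14 (adjusted p = 0.152). The part of mitochondrial content in the late falls was not tested.

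**Figure D5:**
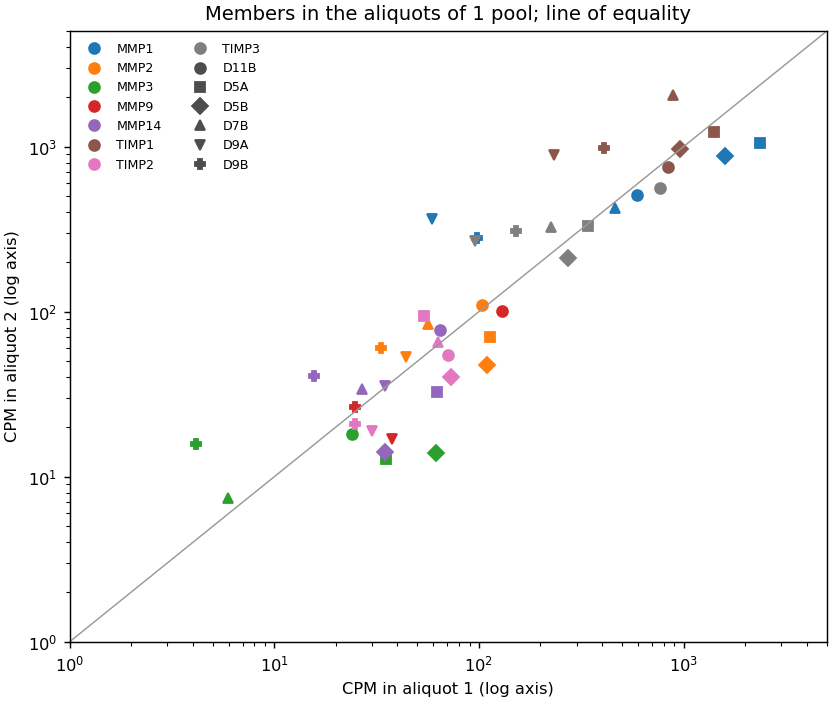
CPM of the 8 genes in the aliquots of the 6 pools captured as a pair, on log axes, for pairs with at least 100 UMIs in each. Colours are genes, shapes pools, and the line marks equality. The 44 pairs differ by a median of 1.54-fold and at most by 6.16-fold, MMP1 in pool A of D9.

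Frozen aliquots of the same pool differed as well. Over 44 pairs with at least 100 UMIs in each aliquot, the larger level was 1.54 times the smaller in the median and 6.16 times at most. That largest ratio was MMP1 in pool A of D9, with 59.2 CPM in the first aliquot and 364 CPM in the second. TIMP1 was at 234 and 893 CPM in these, and in pool B of D9 at 407 and 974 CPM. MMP9 in pool A of D9 was at 37.8 and 17.0 CPM. Both aliquots were taken from 1 pool of cells, so the D9 levels depend on which aliquot is read. Levels of other days did so too, such as TIMP1 in pool B of D7, at 884 and 2055 CPM. On D5, MMP1 was at 2377 and 1059 CPM in pool A and at 1595 and 880 CPM in pool B. With only the first aliquots, TIMP1 fell from D7 to D9 by 1.82 on the log2 scale (adjusted p = 0.0075).

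Genes of the wider system were read from lists. Of 18 other MMP genes, 7 were tested, and between D0 and D15 3 were higher and 2 lower, beside 26.8% and 26.7% of all genes tested. The 3 with the highest mean level were MMP17, MMP23B and MMP16. MMP17, anchored in the membrane by a lipid, went from 14.8 ± 1.07 CPM (SD, n = 2) on D0 to 30.3 ± 9.68 on D3 and 3.60 ± 0.610 on D15, with a called fall of 2.09 on the log2 scale over the course. MMP23B went from 9.78 ± 0.680 CPM on D0 to 2.07 ± 0.201 on D3 and 26.6 ± 10.1 on D13, and MMP16 had no called difference between D0 and D15. MMP15 and MMP24, named after their values were seen, were the other 2 that were higher on D15, by 6.83 ± 0.37 and 3.75 ± 0.24, and MMP19 the other that was lower, by -3.41 ± 0.41. The 7 had a median log2 difference of 0.17.

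Of 5 other inhibitors and clearance receptors, 4 were tested, and 3 were lower on D3 than on D0, in a step where 25.6% of all genes were called, and 3 on D15, where 26.7% of all genes were lower. RECK, a membrane-bound inhibitor of MMPs, fell by 1.86 on the log2 scale from D0 to D3 (SE 0.15, adjusted p = 4.5e-06). LRP1, the endocytic receptor that clears MMP and TIMP complexes, fell by 1.48 (SE 0.25, adjusted p = 5.9e-04) in that step. TFPI2, a serine protease inhibitor of the matrix, was at 36.1 ± 1.81 CPM on D0 and 34.1 ± 4.81 on D3 and was lower on D15 than on D0, by -0.78 ± 0.19, as were LRP1 (-1.74 ± 0.25) and RECK (-1.32 ± 0.15). RECK, LRP1 and TIMP2 all had their highest day on D0.

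Of 10 genes of plasminogen activation, which yields a protease that opens proMMPs, 7 were tested, 6 of them lower and 0 higher on D15 than on D0, where 26.7% of all genes were lower and 26.8% higher. ANXA2, a surface receptor for plasminogen, went from 2330.0 ± 88.6 CPM to 269 ± 57.7 CPM. Its partner S100A10 went from 2929 ± 19.0 to 618 ± 26.8 CPM, and the inhibitor SERPINE2 from 515 ± 6.25 to 82.9 ± 21.4 CPM. Of 5 genes of proprotein activation and induction, 4 were tested, with 1 higher and 1 lower on D15, again beside 26.8% and 26.7% of all genes. BSG, an inducer of MMPs, and FURIN, which cleaves the propeptide of MMP14, had no called difference (0.43 ± 0.24 and 0.09 ± 0.24), and PCSK7 fell by 0.78 (SE 0.20, adjusted p = 0.0048).

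Of 18 ADAM and ADAMTS proteases, 14 were tested, with 9 lower and 1 higher on D15 than on D0, against 26.7% and 26.8% of all genes. ADAMTS1 fell by 3.26 (SE 0.25), ADAM9 by 3.82 (SE 0.59) and ADAM10 by 1.02 (SE 0.22). All 24 matrix substrates were tested, with 12 lower and 3 higher against the same shares of all genes. COL1A2 fell by 2.74 (SE 0.43, adjusted p = 1.1e-04), whereas COL1A1 (-1.07 ± 0.43) and SPARC (-0.85 ± 0.33) were not called. The 3 that were higher, named after their values were seen, were COL4A1 (2.61 ± 0.29), COL4A2 (1.60 ± 0.24) and LAMA5 (0.78 ± 0.18), which code for chains of basement membrane proteins. LAMB1, LAMC1, COL18A1, NID1 and HSPG2, basement membrane genes of the same list, were not called higher. The median log2 difference was -1.13 for the proteases and -1.12 for the substrates, against 0.01 for all genes.

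Of the 9 AP-1 factors, which drive many MMP genes, 6 were lower and 2 higher on D3 than on D0, where 25.6% of all genes were called, and 7 were lower and 0 higher on D15, where 26.7% of all genes were lower. FOS went from 453 ± 21.2 CPM on D0 to 73.3 ± 2.90 on D3, JUN from 433 ± 11.9 to 155 ± 22.3 and JUNB from 292 ± 3.40 to 54.5 ± 35.0. FOSL1 and BATF3, named after their values were seen, were the 2 that rose by D3, by 1.94 ± 0.40 and 1.63 ± 0.19. No fall of MMP1 was called in that step (-0.32 ± 0.62, adjusted p = 0.707), nor was a fall of MMP3 called (-1.58 ± 0.56, adjusted p = 0.0396).

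Of 7 cytokines that can induce MMPs, 3 were tested. CXCL8 went from 0.168 ± 0.0508 CPM on D0 to 6.18 ± 4.44 on D3, a called rise, and to 94.6 ± 13.3 on D5, 10.0 ± 3.66 on D7 and 36.4 ± 19.9 on D9. Its highest day was D5. IL6 was at 2.91 ± 0.672 CPM on D5 and TGFB1 at 29.3 ± 8.35 CPM, with no called difference from D3 for either.

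The genes most like each member over the 16 pools were found by Pearson correlation of log2(CPM + 1), outside the MMP and TIMP families. All points share the days and the changing makeup of the pools, so these values are descriptions. MMP9 was most like PLBD1 (r = 0.995), ACTA1 (0.993) and GAD1 (0.992). MMP1 was most like HOXA11-AS (0.972), TMEM173 (0.971) and MOXD1 (0.968), and TIMP2 was most like C20orf194, MYOF and SSPN (0.964, 0.964 and 0.963). TIMP3 was most like COL5A1 (0.954), followed by PLXDC1, and next by FRMD6 (0.900).

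MMP2 was most like KDELR2 (0.943), TSPAN9 (0.935) and IGFBP7 (0.929), and MMP14 was most like PTK7 (0.946), PICALM (0.918) and UGDH (0.895). TIMP1 was most like IL10RB (0.937). MMP3 had the loosest matches, CD82 (0.880), TMSB4X (0.866) and ISPD (0.862). ACTA1 and PLBD1 were also among the 10 leading genes of clusters 11 and 12, in which MMP9 was highest.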

How the data were processed

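Single-cell RNA-seq of 22 libraries (16 pools, 8 days) was used. The authors aligned the reads and counted UMIs with Cell Ranger 2.2 on hg38. The deposited values are raw counts per gene and barcode, without normalization, for the barcodes that Cell Ranger's own filtering had left. Aliquots of a pool were added together. Counts were summed per pool over the cells kept, and genes in at least 5% of cells were tested. Days were compared with edgeR 4.0.16 (quasi-likelihood, TMM, all 16 pools in 1 fit, Benjamini-Hochberg) in R 4.3.3, with each SE taken as the estimate divided by the root of its F statistic. DESeq2 1.42.0 was an alternative. The test was tried on simulated counts, where small fold changes were mostly missed and large ones mostly called. Clusters came from 100 principal components, 30 neighbours and Louvain at a resolution of 0.6 (igraph 0.11.9). No doublet caller was run, so cells of 2 types may remain, and the 5% of cells with the most UMIs were left out in an alternative. Named were all 8 members, the 3 genes of each list with the highest mean CPM, the 3 genes most like each member and the 3 leading genes of a cluster. The members and lists were chosen with earlier results of these data known. Pool letters were not treated as pairing the pools. Over 28 pairs of days the differences between A and B correlated from -0.412 to 0.812, with a median of -0.0267. This range does not exclude pairing for some of the days. Some of the genes most like TIMP1 are not reported here. The mass spectrometry data were not analysed here.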

Additional observations from a re-analysis of the deposited data

How the results depend on the processing

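Each difference of a member between days was recomputed under 26 alternatives. Of these, 3 (no limit on mitochondrial UMIs, only the first aliquots, only the second) were chosen after seeing the data. The pairs of members carried together, the gene lists and the correlations are given for 1 setting only. Of the 56 tests of a member between adjacent days, 8 were called, and 17 with DESeq2 and 17 with no filter on genes. Over all genes and steps 6.13% of tests were called, and 11% and 4.86% under these. Leaving out 1 pool gave 4 to 13, with 4 without either pool of D9, 5 without pool A of D11 and 13 without pool B of D13. The number called between D0 and D15 stayed at 5 to 8 and that between D9 to D15 and D3 to D7 at 5 to 6, with TIMP1 the call lost in both with at most 5% mitochondrial UMIs. With all pools and the filter on genes kept, 5744 to 7555 of all 12794 genes were called in the first comparison, and 9462 with only the pools of D0 and D15. In the second, 4994 to 6278 were. With the pool letter as a replicate block, 7, 6 and 6 were called, the last 2 beside 7098 and 5849 of 12794 genes. The call lost was TIMP3 from D9 to D11, which then just missed the threshold, in a step where 581 genes were called. It is not known whether the letters pair pools across days, so whether the fit with or without the block is apt was not settled. Of the members' differences, 23 changed sign under at least 1 alternative, 43 times in all. None of the 23 was called as reported, and 0 of the 43 values passed the threshold. The cause was not tested. With at most 5% mitochondrial UMIs the log2 difference became 0.62 for TIMP3 from D0 to D15, 0.30 for TIMP3 from D11 to D13 and 0.056 for TIMP1 from D13 to D15. With no filter on genes it became -0.12 for MMP1 and -0.066 for TIMP2 from D3 to D5, and 0.027 for TIMP2 from D5 to D7. With only the first aliquots it became -3.30 for MMP9 from D3 to D5, -0.024 for TIMP1 from D5 to D7 and -2.03 for MMP3 from D7 to D9. With only the second it became -0.52 for MMP1, -0.13 for MMP14 and -0.058 for MMP2 from D3 to D5, 0.055 for MMP14 and 0.0089 for MMP2 from D5 to D7, 0.042 for TIMP3 from D7 to D9 and -0.27 for MMP3 from D9 to D11. Without the 5% of cells with the most UMIs, TIMP1 from D3 to D5 became 0.017. Leaving out 1 pool, the range was -0.45 to 0.99 for MMP9 from D0 to D3. For the step to D5 it was -0.39 to 0.49 for MMP1, -0.37 to 1.19 for MMP14, -0.35 to 1.14 for MMP9 and -0.29 to 0.089 for TIMP1. From D5 to D7 it was -1.21 to 0.25 for MMP14, -0.38 to 0.23 for TIMP2 and -0.33 to 0.14 for TIMP3. From D7 to D9 it was -0.47 to 1.05 for MMP3, -0.023 to 0.99 for MMP14, -0.66 to 0.29 for MMP2 and -0.35 to 0.10 for TIMP3. From D9 to D11 it was -0.30 to 0.59 for MMP3 and -0.077 to 0.77 for TIMP1, and from D11 to D13 -0.99 to 0.15 for MMP14, -0.97 to 0.090 for MMP2 and -0.48 to 0.12 for TIMP3. With only the pools of the days compared, MMP1 from D5 to D7 (adjusted p = 0.0055) and MMP2 from D9 to D11 (0.0056) were called, and with no filter on genes MMP14 from D13 to D15 was (0.0068). DESeq2's size factors moved the median of all genes by at most 0.0339. With 2 pools per day, steps of genes whose pools differ widely, such as MMP1 and MMP14, are poorly resolved, and MMP9 before D7 rests on 8 UMIs.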
